A study of Mus musculus with 9 samples.

Results

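The genes described here encode 6 enzymes of ketone body metabolism: Bdh1, Bdh2, Oxct1, Acat1, Acat2 and Aacs. They were chosen by name, with earlier results of these data known. All 6 were found among the 54532 genes of the count table and among the 15909 genes with enough counts to be tested. Bdh1, Oxct1 and Acat1 were taken as the mitochondrial members, and Bdh2, Acat2 and Aacs as the cytosolic members. Each was compared between mice exposed to early life adversity (ELA) and control mice, and the mitochondrial members were compared with the cytosolic members.

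Ketone bodies are small fuel molecules that the liver makes from acetyl-CoA when fat is burned, and that other tissues take up from the blood. In mitochondria of the receiving tissue, 3-hydroxybutyrate is oxidized to acetoacetate, acetoacetate is activated with CoA from succinyl-CoA, and acetoacetyl-CoA is split to acetyl-CoA for the citric acid cycle. In the cytosol, acetoacetate can be activated directly with ATP, and the acetoacetyl-CoA formed there can enter cholesterol or fatty acid synthesis. Suckling mice drink a milk rich in fat, and ketone bodies circulate in them.

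RNA was sequenced from first-molar enamel organs of 9 male pups killed on postnatal day 12 (P12) and 1 library was made from each. The enamel organ is an epithelium, and its ameloblasts first lay down the matrix of enamel and later direct its mineralization. The 5 ELA pups were reared from P2 to P12 in cages with little bedding and nesting material, a model in which maternal care becomes fragmented, and the 4 control pups had ample material. The study reports a lower mean body weight for the sequenced ELA pups than for the sequenced controls. It also left its lightest ELA mice out of its later analyses. The part of body weight in the results below was not tested. The pups of both groups were C57BL/6 offspring of Crh-IRES-Cre +/+ dams and Ai14 tdTomato males, so that both groups carried a Cre recombinase expressed from the Crh gene and a Cre-dependent red fluorescent reporter.

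Total counts were 18056774 to 32110160 per library in ELA and 18683431 to 20831736 in controls. The mice are named here by their titles, which start with t-203 (3 mice) or t-205 (2 mice) for ELA and c-202 or c-204 (2 mice each) for control. What these numbers stand for is not in the labels, and nothing in them says that the mice came from separate litters. The study's methods describe qPCR on the same numbers of male enamel organs per group, taken from 2 separate litters per group. The titles here also hold 2 numbers per group, so mice of a group may be littermates here too. The tests take each mouse as independent and measure only the spread between these mice, and their p-values may be too small if litters were shared. All 7 ameloblast markers (Amelx, Ambn, Enam, Amtn, Odam, Klk4 and Mmp20) had counts in all 9 libraries, and their summed level was 104741 to 167739 CPM (counts scaled to the library total) in ELA and 78779 to 104321 CPM in controls, with 6 of 7 fold changes positive. Markers of dental mesenchyme and fibroblasts summed to 11943 to 23310 CPM in ELA and 15600 to 30919 CPM in controls, with negative fold changes for 8 of 8. Erythroid markers summed to 160 to 378 CPM in ELA and 364 to 862 CPM in controls, with 5 of 6 fold changes negative, and osteoclast markers to 187 to 674 CPM and 400 to 690 CPM, with 4 of 4 tested negative. Library t-203-1-4 stood apart in the 6 neuron markers, whose sum was 39.7 to 458 CPM in ELA and 38.8 to 58.3 CPM in controls. It had 140.2 CPM of Zic1, 69.8 CPM of Neurod1 and 79.3 CPM of Dcx, against at most 0.771, 0.316 and 1.04 CPM in any other library. The part of these differences in the results below was not tested, and values without t-203-1-4 are given for each enzyme. In bulk RNA, fewer cells of a type and less RNA per cell cannot be told apart.

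The levels of the 6 enzymes were first set in order, per transcript length, as FPKM, which is CPM divided by the gene's length in kilobases. Oxct1 was the highest, with 76.3 ± 14.6 FPKM in ELA (SD, n = 5) and 55.9 ± 4.53 FPKM in controls (SD, n = 4). Acat1 followed with 41.6 ± 5.74 and 35.0 ± 4.69 FPKM, and Bdh1 with 32.1 ± 3.32 and 22.3 ± 4.70 FPKM. All the mitochondrial members thus stood above all the cytosolic members in mean level. The cytosolic Acat2 had 21.6 ± 3.28 FPKM in ELA and 15.6 ± 2.30 FPKM in controls, Aacs 5.46 ± 1.78 and 4.39 ± 0.530 FPKM, and Bdh2 2.50 ± 0.720 and 2.32 ± 0.522 FPKM. Over the 9 mice, the range of Oxct1 (50.7 to 95.5 FPKM) did not overlap that of Acat1 (30.5 to 49.2 FPKM), and the range of Acat2 (12.2 to 25.8 FPKM) did not overlap that of Aacs (2.60 to 7.51 FPKM). The neighbours Acat1 and Bdh1, Bdh1 and Acat2, and Aacs and Bdh2 had overlapping ranges over the 9 mice, but within a mouse Acat1 exceeded Bdh1 in 9 of 9, Bdh1 exceeded Acat2 in 8 of 9 and Aacs exceeded Bdh2 in 9 of 9. Within 1 group, Acat1 (30.5 to 41.1 FPKM) and Bdh1 (16.4 to 26.4 FPKM) did not overlap in controls, nor did Aacs (3.91 to 5.09 FPKM) and Bdh2 (1.76 to 2.87 FPKM). Bdh1 (27.8 to 36.3 FPKM) and Acat2 (17.3 to 25.8 FPKM) did not overlap in ELA. Each of these pairs overlapped in the other group.

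All 6 enzymes had a positive fold change in ELA, with a median log2 fold change of 0.38, and none passed the adjusted p of 0.05 (edgeR quasi-likelihood test, Benjamini-Hochberg adjustment over 15909 genes). Of all tested genes, 10 passed that threshold, which is 0.0629% of them. That count was 140 with DESeq2, 38 with no filter on low counts and 0 to 25 with 1 mouse left out, and 0 of the 6 enzymes passed in any of these. Bdh1, Oxct1 and Acat2 were higher in ELA at an unadjusted p below 0.05, 3 of 6 members, and 3.56% of all tested genes (566) were called higher in that way. In Bdh1 and Acat2 the value of every ELA mouse was above that of every control mouse, 2 of 6 members, against 1.39% of all tested genes (221). Of all tested genes, 52.6% had a positive fold change and the median log2 fold change was 0.013. With plain library totals in place of TMM factors, the unadjusted calls over all genes were 367 higher and 654 lower, in place of 566 and 459. The same 3 members were still higher at the unadjusted p, but the groups then overlapped for Bdh1 and Acat2. On that scale Bdh1 was 25.2 FPKM in the ELA mouse t-205-1-1 and 28.5 FPKM in the control mouse c-202-1-2. Acat2 was 15.7 and 19.0 FPKM in the same mice.

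**Figure D1:**
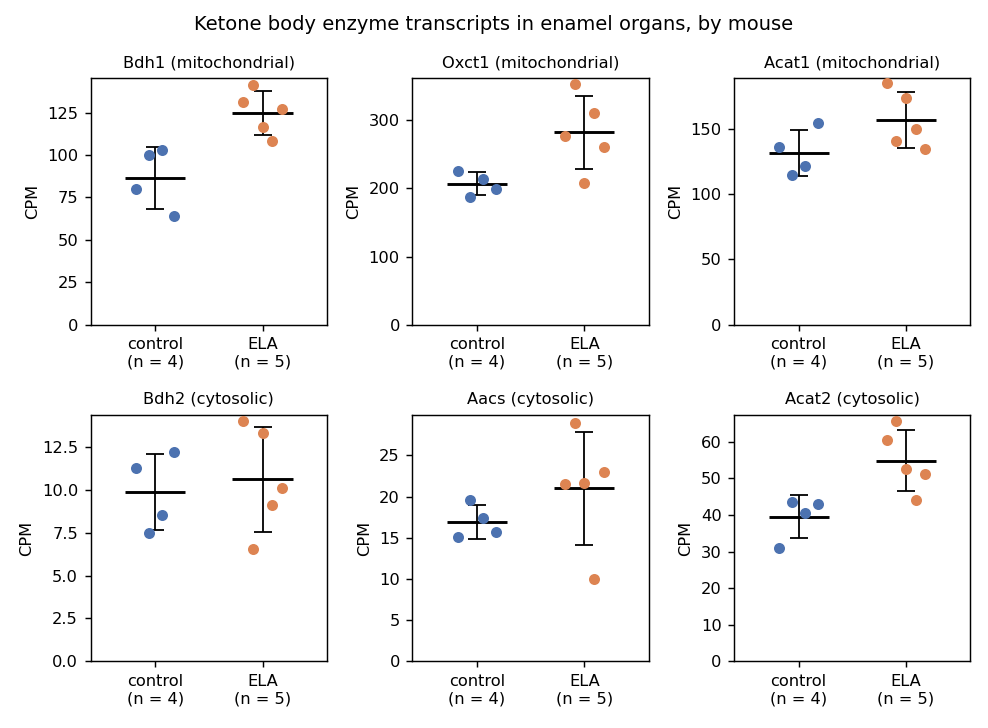
Level of each of the 6 enzymes in each mouse, in CPM with TMM library sizes, for 4 control and 5 ELA mice, with bars at the group means and error bars of 1 SD. The ELA and control points do not overlap for Bdh1 and Acat2 and overlap for the other enzymes.

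Bdh1 and Bdh2 are the dehydrogenases of the group. Bdh1 (ENSMUSG00000046598, GRCm38 chr16:31422280-31458901, plus strand) encodes the mitochondrial enzyme that interconverts 3-hydroxybutyrate and acetoacetate. Its level was 131.2, 141.2 and 116.3 CPM in the ELA mice t-203-1-3, t-203-1-4 and t-203-1-5 and 108.1 and 127.3 CPM in t-205-1-1 and t-205-1-3. In the control mice it was 79.8 and 99.96 CPM in c-202-1-1 and c-202-1-2 and 102.7 and 63.9 CPM in c-204-1-1 and c-204-1-2. The lowest ELA mouse stood just above the highest control mouse, so the groups did not overlap. The means were 124.8 ± 12.9 CPM in ELA (SD, n = 5) and 86.6 ± 18.3 CPM in controls (SD, n = 4), and the log2 fold change was 0.53 ± 0.16 (SE), or 1.44-fold, with a 95% interval of 0.19 to 0.87. The unadjusted p of the edgeR quasi-likelihood test was 0.00567 and the Benjamini-Hochberg adjusted p was 0.442. Without t-203-1-4 the log2 fold change was 0.48. Counts of Bdh1 were 1326 to 3764 per library, and the antisense gene Gm15743, which shares 533 exon bases with it, had 4 to 23 counts.

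Bdh2 (ENSMUSG00000028167, chr3:135281221-135304426, plus strand) encodes a cytosolic dehydrogenase described for 3-hydroxybutyrate and for a siderophore. It was the least expressed member, with 150 to 431 counts per library. Its level was 14.0, 6.56 and 13.3 CPM in the ELA mice t-203-1-3, t-203-1-4 and t-203-1-5 and 9.13 and 10.1 CPM in t-205-1-1 and t-205-1-3. In controls it was 11.3 and 7.48 CPM in c-202-1-1 and c-202-1-2 and 8.54 and 12.2 CPM in c-204-1-1 and c-204-1-2. The groups overlapped over most of their range, and t-203-1-4, the mouse with the highest Bdh1, had the lowest Bdh2. The means were 10.6 ± 3.06 and 9.87 ± 2.22 CPM and the log2 fold change was 0.11 ± 0.24 (SE), with a 95% interval of -0.42 to 0.63 and an unadjusted p of 0.665 (edgeR). The log2 fold change was 0.24 without t-203-1-4. It took the negative sign when t-203-1-3 or c-202-1-2 was left out.

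Oxct1 and Aacs activate acetoacetate by different reactions. Oxct1 (ENSMUSG00000022186, chr15:4026383-4155344, plus strand) encodes the mitochondrial CoA transferase that commits acetoacetate to oxidation and that the liver lacks. Its level was 277.4, 353.3 and 208.8 CPM in the ELA mice t-203-1-3, t-203-1-4 and t-203-1-5 and 310.9 and 260.7 CPM in t-205-1-1 and t-205-1-3. In controls it was 225.8 and 187.5 CPM in c-202-1-1 and c-202-1-2 and 214.2 and 199.4 CPM in c-204-1-1 and c-204-1-2. Of the ELA mice, 4 were above all controls, and t-203-1-5 lay within the control range. The means were 282.2 ± 54.2 CPM in ELA (SD, n = 5) and 206.7 ± 16.8 CPM in controls (SD, n = 4). The log2 fold change was 0.45 ± 0.16 (SE), or 1.37-fold, with a 95% interval of 0.10 to 0.79, an unadjusted p of 0.0152 and an adjusted p of 0.595 (edgeR, Benjamini-Hochberg). Without t-203-1-4, in which Oxct1 was highest, the log2 fold change was 0.35 and the unadjusted p 0.0381. BC037032, on the opposite strand, shares 467 exon bases with Oxct1 and had 13 to 46 counts, and Gm15632, also on the opposite strand, had 0 counts, while Oxct1 had 3911 to 8079.

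Aacs (ENSMUSG00000029482, chr5:125475814-125517410, plus strand) encodes acetoacetyl-CoA synthetase, the cytosolic enzyme that uses ATP to activate acetoacetate for lipid synthesis. Its level was 21.5, 28.9 and 21.7 CPM in the ELA mice t-203-1-3, t-203-1-4 and t-203-1-5, but 10.01 and 23.0 CPM in t-205-1-1 and t-205-1-3. In controls it was 15.1 and 19.6 CPM in c-202-1-1 and c-202-1-2 and 17.4 and 15.7 CPM in c-204-1-1 and c-204-1-2. The ELA mouse t-205-1-1 was below all controls and the other ELA mice were above all controls. The means were 21.0 ± 6.87 and 16.9 ± 2.04 CPM, with a log2 fold change of 0.31 ± 0.24 (SE), a 95% interval of -0.22 to 0.85 and an unadjusted p of 0.224 (edgeR). The call turned on 1 mouse, since without t-205-1-1 the log2 fold change was 0.49 and the unadjusted p 0.0088, with an adjusted p of 0.442 (edgeR, Benjamini-Hochberg). Without t-203-1-4 the log2 fold change was 0.17. The miRNA gene Gm27551 lies within Aacs on the same strand and had 0 to 1 counts.

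Acat1 and Acat2 are thiolases, which split acetoacetyl-CoA to acetyl-CoA or form it. Acat1 (ENSMUSG00000032047, chr9:53580522-53610382, minus strand) encodes the mitochondrial thiolase, which also works in isoleucine breakdown. Its level was 184.8, 140.4 and 173.0 CPM in the ELA mice t-203-1-3, t-203-1-4 and t-203-1-5 and 149.5 and 134.7 CPM in t-205-1-1 and t-205-1-3. In controls it was 136.1 and 114.6 CPM in c-202-1-1 and c-202-1-2 and 121.4 and 154.3 CPM in c-204-1-1 and c-204-1-2. Only t-203-1-3 and t-203-1-5 were above all controls. The means were 156.5 ± 21.6 CPM in ELA (SD, n = 5) and 131.6 ± 17.6 CPM in controls (SD, n = 4). The log2 fold change was 0.25 ± 0.14 (SE), with a 95% interval of -0.060 to 0.56 and an unadjusted p of 0.105 (edgeR), and it was 0.29 without t-203-1-4.

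Acat2 (ENSMUSG00000023832, chr17:12942890-12960747, minus strand) encodes the cytosolic thiolase that forms acetoacetyl-CoA at the entry to the mevalonate pathway. Its level was 60.5, 65.6 and 52.7 CPM in the ELA mice t-203-1-3, t-203-1-4 and t-203-1-5 and 44.1 and 51.2 CPM in t-205-1-1 and t-205-1-3. In controls it was 31.0 and 43.6 CPM in c-202-1-1 and c-202-1-2 and 40.6 and 43.1 CPM in c-204-1-1 and c-204-1-2. All ELA mice were above all controls, by a narrow gap between t-205-1-1 and c-202-1-2. The means were 54.8 ± 8.35 CPM in ELA (SD, n = 5) and 39.6 ± 5.86 CPM in controls (SD, n = 4). The log2 fold change was 0.47 ± 0.15 (SE), or 1.39-fold, with a 95% interval of 0.14 to 0.80, an unadjusted p of 0.00852 and an adjusted p of 0.493 (edgeR, Benjamini-Hochberg). Without t-203-1-4 it was 0.40. Acat2 has a near copy on the same chromosome, Acat3, with 4 to 18 counts per library against 620 to 1705 for Acat2, and 28.9% of 2636 windows of 100 bases in Acat2 transcripts also occur in Acat3, so how reads of those windows were assigned is uncertain.

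**Figure D2:**
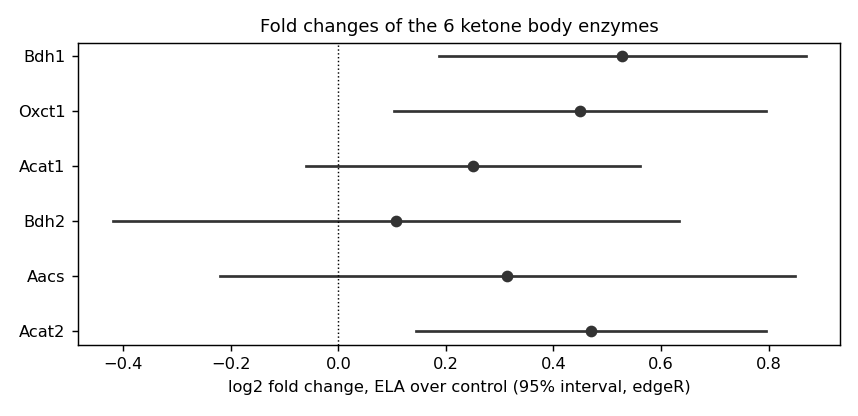
Log2 fold change of ELA against control for each of the 6 enzymes, with 95% intervals from the edgeR fit as lines. All 6 points lie above 0, and the intervals of Bdh1, Oxct1 and Acat2 do not include 0.

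The unadjusted calls of Bdh1, Oxct1 and Acat2 held when any single mouse was left out, with edgeR unadjusted p of 0.00346 to 0.0198, 0.00236 to 0.0438 and 0.00358 to 0.0315. They also held with counts summed by title number, 2 sums against 2, with edgeR unadjusted p of 0.00516, 0.0174 and 0.0223. They did not all hold when all mice sharing a title number were left out. Without the mice titled c-202 only Bdh1 was called (edgeR unadjusted p = 0.0257, against 0.0756 for Oxct1 and 0.0629 for Acat2). Without those titled t-203 only Oxct1 was called (edgeR unadjusted p = 0.0201, against 0.0565 for Bdh1 and 0.169 for Acat2), and without those titled c-204 Bdh1 and Acat2 were called but Oxct1 was not (0.0781). Mean levels by title number also differed for Acat2, with 59.6 CPM in the 3 mice titled t-203 and 47.7 CPM in the 2 mice titled t-205, against 37.3 and 41.8 CPM in the mice titled c-202 and c-204. For Oxct1 the means of the title numbers were 279.8 and 285.8 CPM in ELA and 206.7 and 206.8 CPM in controls, so that the 2 numbers of a group lay close together.

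The 5′ flanks of the 3 enzymes called at the unadjusted p are shown, since a gene's promoter is where the factors that control its transcription bind. The sequences are the 250 bases before the RefSeq transcript starts in GRCm38.p6, written 5′ to 3′ along the gene, and for Bdh1 RefSeq gives 2 starts. The end of the windows at the upstream start of Bdh1, at Oxct1 and at Acat2 lies inside the gene as the count table places it. The window at the downstream start of Bdh1 lies wholly inside Bdh1 and inside the antisense gene Gm15743. That of Oxct1 lies wholly inside BC037032, the gene on the opposite strand. Capitals mark the matches to the motifs named after the sequences.

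Bdh1, upstream start, chr16:31422047-31422296, plus strand: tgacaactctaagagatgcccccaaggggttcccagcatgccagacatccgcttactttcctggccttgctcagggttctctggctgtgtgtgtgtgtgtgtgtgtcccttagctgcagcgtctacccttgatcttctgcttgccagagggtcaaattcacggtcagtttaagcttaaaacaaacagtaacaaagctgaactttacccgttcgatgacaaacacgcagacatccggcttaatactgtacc
Bdh1, downstream start, chr16:31428503-31428752, plus strand: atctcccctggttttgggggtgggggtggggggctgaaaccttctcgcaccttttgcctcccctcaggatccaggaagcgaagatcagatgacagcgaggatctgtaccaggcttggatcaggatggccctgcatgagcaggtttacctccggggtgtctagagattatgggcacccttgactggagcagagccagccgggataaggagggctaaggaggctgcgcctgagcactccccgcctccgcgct
Oxct1, chr15:4026178-4026427, plus strand: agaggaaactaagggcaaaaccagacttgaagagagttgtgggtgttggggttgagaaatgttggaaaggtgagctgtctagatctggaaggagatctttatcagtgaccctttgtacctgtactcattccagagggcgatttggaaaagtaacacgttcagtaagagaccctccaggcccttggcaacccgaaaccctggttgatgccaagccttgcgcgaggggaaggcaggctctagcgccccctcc
Acat2, chr17:12960726-12960975, minus strand: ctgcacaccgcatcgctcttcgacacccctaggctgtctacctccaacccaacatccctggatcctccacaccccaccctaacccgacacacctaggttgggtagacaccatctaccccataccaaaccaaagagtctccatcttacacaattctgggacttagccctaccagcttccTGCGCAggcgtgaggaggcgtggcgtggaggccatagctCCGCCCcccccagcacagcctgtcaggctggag

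These windows were searched on both strands for 7 short motifs, and the share of 32851 mouse promoter windows of the same length that hold each is given with it. They were the NRF1 core TGCGCA (6.43% of windows), the sterol regulatory element TCACNCCAC (1.05%), the nuclear receptor half-site AGGTCA (14.0%), the ERR element TNAAGGTCA (1.14%), which contains that half-site, the E-box CACGTG (6.02%), the CCAAT box CCAAT (33.8%) and the GC box GGGCGG (32.7%). The Bdh1 and Oxct1 windows held none of these letters. The Acat2 window held TGCGCA at bases 179 to 184 and CCGCCC, the GC box on the opposite strand, at bases 218 to 223. Of the windows of the other members, that of Aacs (chr5:125475623-125475872) held TGCGCA at bases 78 to 83 and that of Bdh2 (chr3:135280971-135281220) held ATTGG, the CCAAT box on the opposite strand, at bases 110 to 114. The windows of Aacs and Acat2 share the run CCTGCGCAGGCG around TGCGCA, which 21 of the 32851 windows hold (0.0639%). The Aacs window also shared a run of 12 bases with that of Bdh2 and with that at the downstream start of Bdh1. Those runs were rarer, in 8 and 2 of the 32851 windows. Each pair of windows of different enzymes shared a run of 7 to 12 bases, and whether any has a function was not tested. The Aacs window held 22 CpG dinucleotides, and the others held 5 to 9, against a median of 6 over all windows.

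The mitochondrial members Bdh1, Oxct1 and Acat1 had a mean log2 fold change of 0.41 and the cytosolic members Bdh2, Acat2 and Aacs a mean of 0.30. The difference of 0.11 was within the spread between mice (pooled SD 0.23), and no test was made of it. For each mouse, the deviation of log2 CPM from the control mean was averaged over the members of a compartment. The mitochondrial average was 0.52, 0.54 and 0.29 in the ELA mice t-203-1-3, t-203-1-4 and t-203-1-5 and 0.38 and 0.32 in t-205-1-1 and t-205-1-3, against -0.074 to 0.073 in controls. The cytosolic average was 0.50, 0.32 and 0.42 in the same 3 mice titled t-203, but -0.22 in t-205-1-1 and 0.30 in t-205-1-3, against -0.094 to 0.12 in controls. All ELA mice were thus above all controls in the mitochondrial average, and 4 of 5 were in the cytosolic average. The difference between the averages was 0.60 in t-205-1-1 and -0.12 to 0.22 in the other ELA mice. The difference of the mean fold changes depended on the mice used. It was 0.022 without t-205-1-1, 0.021 without both mice titled t-205, 0.053 without c-204-1-2, 0.075 without both mice titled c-204 and 0.017 with Bdh2 left out of the cytosolic members, but 0.17 without t-203-1-5 and 0.27 without the mice titled t-203.

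**Figure D3:**
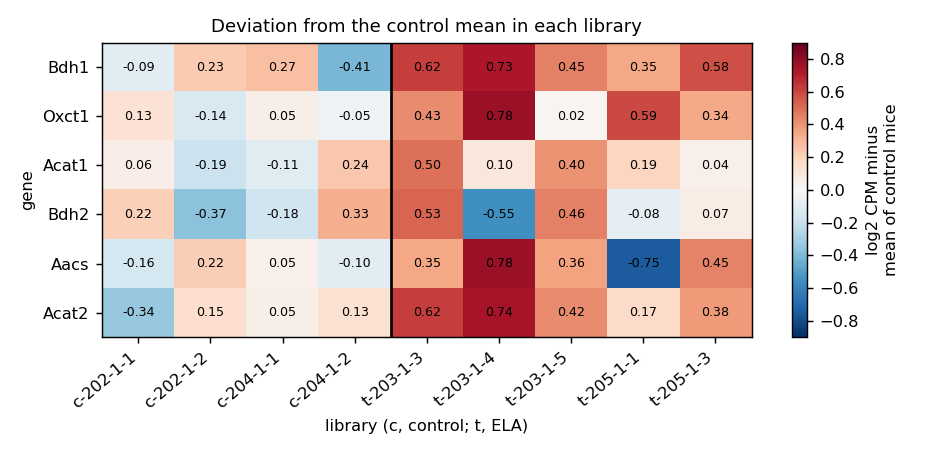
Deviation of each enzyme's log2 CPM from its control mean, as a colour and a number, with 1 column per mouse (4 control mice left of the black line, 5 ELA mice right of it) and 1 row per enzyme, the mitochondrial Bdh1, Oxct1 and Acat1 above the cytosolic Bdh2, Aacs and Acat2. The low Aacs value of the ELA mouse t-205-1-1 stands out from the other ELA mice.

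Each mitochondrial enzyme was also set against the cytosolic enzyme of like reaction within the same mouse, as a ratio of FPKM. Bdh1 exceeded Bdh2 14.0 ± 5.61-fold in ELA (SD, n = 5, range 9.55 to 23.5) and 10.3 ± 4.25-fold in controls (SD, n = 4, range 5.73 to 14.6). Oxct1 exceeded Aacs 16.1 ± 9.19-fold in ELA (range 10.01 to 32.3) and 12.9 ± 2.32-fold in controls (range 9.96 to 15.6). Acat1 exceeded Acat2 1.96 ± 0.348-fold in ELA (range 1.45 to 2.29) and 2.30 ± 0.521-fold in controls (range 1.78 to 2.97). The groups overlapped in all 3 ratios, and the thiolase pair was the only one whose mean ratio was lower in ELA than in controls. The higher ELA mean of Oxct1 to Aacs rested on t-205-1-1 alone, with a ratio of 32.3. That ratio was 11.8 in t-205-1-3 and 13.4, 12.7 and 10.01 in t-203-1-3, t-203-1-4 and t-203-1-5, all within the control range.

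**Figure D4:**
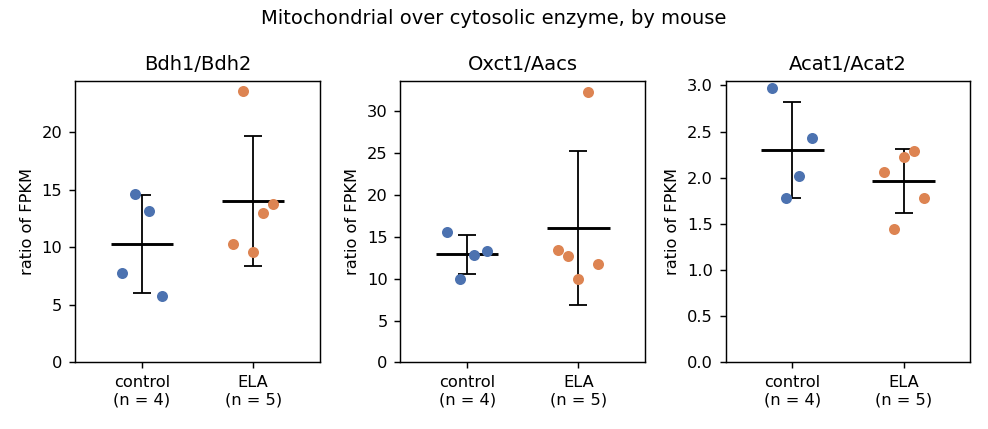
Ratio of FPKM of the mitochondrial to the cytosolic enzyme of 3 pairs (Bdh1 to Bdh2, Oxct1 to Aacs, Acat1 to Acat2) in each of the 4 control and 5 ELA mice, with bars at the group means and error bars of 1 SD. The ELA ratio of Oxct1 to Aacs reaches 32.3 in t-205-1-1, and the groups overlap in every pair.

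The 6 enzymes did not vary together among mice of a group. Over the 9 mice, with each value taken as its deviation from the group mean, 7 of the 15 pairs had a positive Pearson correlation and 8 a negative one. The highest were Bdh2 with Acat1 (r = 0.85) and Acat2 with Aacs (r = 0.72), and Bdh1 with Aacs had r = 0.56. The lowest were Bdh1 with Acat1 (r = -0.61), Bdh1 with Bdh2 (r = -0.57) and Bdh2 with Oxct1 (r = -0.55). These are descriptions over libraries that differ in depth and in the levels of cell type markers, and the part of those differences in the correlations was not tested. Without regard to group, the genes whose log2 CPM was most like that of Bdh1 over the 9 mice, among 9775 genes with a mean of at least 10 CPM, were Clip2 (r = 0.967), Slco4a1 (0.959) and Paqr4 (0.958). For Oxct1 they were Lrpprc (r = 0.970), Fam198b (0.963) and Aldh1l1 (0.958), and for Acat1 they were Etfdh (0.969), Mpzl2 (0.954) and Eif3j1 (0.953). For Bdh2 they were Atp5j2 (r = 0.992), Atp5mpl (0.986) and Ppp1r11 (0.986). For Acat2 they were Lsm11 (r = 0.955), Cpne8 (0.954) and Spats2 (0.939), and those for Aacs included Rexo4 (0.934) and Shf (0.933). No gene stood in the list of more than 1 enzyme, though lists of 3 genes from 9775 have little room to overlap. Since group was not removed here, differences between ELA and control enter these correlations.

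Other genes of ketone body formation and use were read beside the members. The list also held Hmgcs1 of cholesterol synthesis, which is counted again in the mevalonate list below. Of 7 listed, 4 were tested, and Acat3, Oxct2a and Oxct2b had too few counts. The fold change was positive in all 4, the unadjusted p was below 0.05 in 3, and 0 passed the adjusted p (edgeR, Benjamini-Hochberg). The shares over all tested genes were 52.6% with a positive fold change and 3.56% called higher at that unadjusted p. Hmgcll1, an extramitochondrial lyase, had 7.13 ± 1.92 CPM in ELA (SD, n = 5) and 4.76 ± 1.01 CPM in controls (SD, n = 4), a log2 fold change of 0.58 and an unadjusted p of 0.0352 (edgeR). Hmgcs1, the cytosolic synthase that uses the product of Acat2 for cholesterol synthesis, had 212.8 ± 42.7 and 162.3 ± 15.4 CPM, a log2 fold change of 0.39 and an unadjusted p of 0.0370 (edgeR). The 3 calls depended on the libraries used: 1 was left without t-203-1-3, t-203-1-4 or c-204-1-2, 0 without c-204-1-1, and 1 with plain library totals.

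The pathways on either side of the members were taken as lists, chosen with earlier results of these data known, with no test of any list. In mevalonate and cholesterol synthesis, which Acat2 enters, 16 of 16 tested genes had a positive fold change and 6 were called higher at that unadjusted threshold (Dhcr7, Cyp51, Insig1, Fdft1 and Hmgcs1 among them), with a median log2 fold change of 0.36. Over all tested genes, 52.6% were positive and 3.56% were called higher. Dhcr7, the last reductase of the pathway, had 19.4 ± 3.93 CPM in ELA (SD, n = 5) and 12.4 ± 1.80 CPM in controls (SD, n = 4), a log2 fold change of 0.64 and an unadjusted p of 0.0036 (edgeR). The count called higher fell to 3 without c-204-1-2 and to 2 with plain library totals. The number with a positive fold change fell to 14 of 16 at the least. This was so with plain library totals, without c-204-1-1, and without the mice titled t-203 or c-204. In the citric acid cycle, into which Acat1 delivers acetyl-CoA, 17 of 17 had a positive fold change and 5 were called higher (Cs, Dlst, Sdha and Sdhb among them), with a median of 0.24. Cs, citrate synthase, had 346.1 ± 25.7 CPM in ELA (SD, n = 5) and 276.8 ± 11.8 CPM in controls (SD, n = 4), a log2 fold change of 0.32 and an unadjusted p of 0.0172 (edgeR). The count called higher was 1 without c-204-1-1, 2 without c-204-1-2 or t-203-1-3 and 3 without c-202-1-2. Without the mice titled t-203, 14 of 17 had a positive fold change.

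A mixed list held monocarboxylate transporters, their partner Bsg, receptors for short acids, and regulators of mitochondrial and fasting metabolism such as Ppargc1a and Sirt3, which neither carry nor bind ketone bodies. Of these, 10 of 15 were tested, 6 had a positive fold change and 2 were called higher, over a range of log2 fold changes from -1.20 to 0.99. Beside this list and the next stand the shares of all tested genes, 52.6% positive and 3.56% called higher. Ppargc1a, a coactivator of mitochondrial genes, had 68.1 ± 23.9 CPM in ELA (SD, n = 5) and 39.9 ± 7.003 CPM in controls (SD, n = 4), a log2 fold change of 0.77 and an unadjusted p of 0.00944 (edgeR). Slc16a3, a lactate exporter, had a log2 fold change of 0.49 (unadjusted p = 0.0197, edgeR). In a list of short-chain acyl-CoA oxidation and related steps, 13 of 16 were tested and 10 had a positive fold change. Abat (0.62), Aldh5a1 (0.41) and Hadha (0.31) were called higher, with the log2 fold change in parentheses. Abat and Aldh5a1 are enzymes of GABA breakdown and not of acyl-CoA oxidation, so Hadha, a subunit of the mitochondrial trifunctional protein, was the only one of the 3 from fatty acid oxidation. Acss1, a mitochondrial acetyl-CoA synthetase, was called lower at -0.85, with 2.96 ± 1.21 CPM in ELA (SD, n = 5) and 5.38 ± 1.29 CPM in controls (SD, n = 4). Without t-205-1-1 or t-203-1-4 the number called higher was 5. None of the genes of these lists passed the adjusted p. The medians stood at 0.12 for transporters and sensors and 0.18 for acyl-CoA oxidation, against 0.38 for the 6 members and 0.013 for all tested genes.

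**Figure D5:**
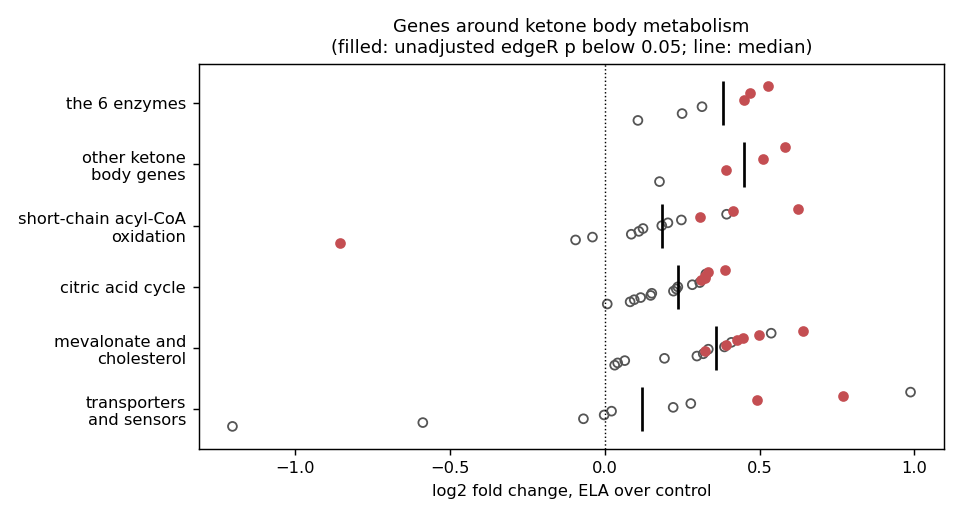
Log2 fold change of ELA against control for every tested gene of the 6 enzymes and of 5 lists of neighbouring pathways, 1 point per gene, filled where the unadjusted edgeR p was below 0.05, with a line at each median. The medians run from 0.12 in transporters and sensors to 0.45 in the other ketone body genes, and the median of all tested genes is 0.013. Hmgcs1 stands both in the other ketone body genes and in mevalonate and cholesterol synthesis.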

How the data were processed

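Enamel organ RNA of 9 male mice, 1 library each, was grouped by the treatment given in the labels as 5 ELA and 4 control. The authors deposited whole-number counts per Ensembl gene, not normalized, that a sequencing company made, with CASAVA, HISAT and HISAT2 named, with no versions, in the submitters' processing notes. Which program counted reads, whether it used strand, and on which build, is not given in the sources used here, so reads of overlapping genes on opposite strands cannot be told apart. Of the 54532 genes, 54409 were found in GENCODE M21 by identifier and 98.3% lie at the coordinates given there, so GRCm38 positions were used. No library column was left unassigned.

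Genes were filtered with filterByExpr (count minimum 10), scaled with TMM and fitted with edgeR 4.0.16 in R 4.3.3 (glmQLFit with robust estimation, glmQLFTest, no covariates), with Benjamini-Hochberg adjustment over 15909 genes and thresholds of 0.05. The authors used DESeq2, which was run as an alternative (1.42.0), as were limma-voom (limma 3.58.1), RLE factors, plain library totals, no filter, leaving out each mouse or each title number, and counts summed by title number. FPKM used the deposited gene lengths, which equal the summed exon lengths of GENCODE M21 for all 6 enzymes. The steps were tested on simulated counts of independent mice, with changes larger than those of the 6 enzymes. Changes of the size seen in the enzymes, and shared litters, were not simulated. Promoter windows came from RefSeq (GRCm38.p6), where 5 of the 6 enzymes had an entry, with 6 windows.

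The enzymes and the lists were chosen with earlier results of these data known. From each list, every gene with an unadjusted p below 0.05 was named, and for each enzyme the 3 genes most correlated with it, except for some genes that are not reported here. Values are CPM with TMM library sizes unless stated. Log2 CPM used a prior count of 2. Of the enzymes, Bdh2 had the fewest counts per library, 150 to 431. Skeletal muscle markers summed to 2.52 to 43.9 CPM in ELA and 2.59 to 31.6 CPM in controls, hepatocyte markers to 0.34 to 28.7 and 2.58 to 17.2 CPM, adipocyte markers (Lep at 0 in all libraries) to 2.08 to 6.89 and 1.05 to 2.78 CPM, macrophage markers to 115 to 163 and 133 to 178 CPM, and endothelial markers to 278 to 322 and 256 to 332 CPM.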

Additional observations from a re-analysis of the deposited data

Results flagged for a closer look

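The ratio of Oxct1 to Aacs in FPKM was 32.3 in the ELA mouse t-205-1-1 and 10.01 to 13.4 in the other 4 ELA mice. Its gap to the nearest mouse was 0.847 of the range of the group, above Dixon's 95% critical value of 0.71 for 5 samples. It rests on the low Aacs of that mouse, 10.01 CPM, beside an Oxct1 of 310.9 CPM. Of 28 groups of values examined, 1 was marked in this way, and chance marks about 1 in 20.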

How the results depend on the processing

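Over 19 alternatives, 110 of the 114 values of the 6 enzymes kept the positive sign and their side of the adjusted threshold, and 0 passed it (edgeR, DESeq2 and limma-voom). Leaving out 1 mouse gave a log2 fold change of 0.41 to 0.62 for Bdh1, 0.35 to 0.54 for Oxct1, 0.37 to 0.54 for Acat2, 0.19 to 0.33 for Acat1, 0.17 to 0.49 for Aacs and -0.0045 to 0.24 for Bdh2, which was -0.00385 without c-202-1-2 and -0.0045 without t-203-1-3. Without the mice titled t-203, Bdh2 was at -0.035 and Aacs at -0.039, and the cause was not tested. The number of enzymes higher at an unadjusted p below 0.05 was 3, but 1 without the mice titled c-202, 1 without those titled t-203, 2 without those titled c-204 and 4 without those titled t-205 or without t-205-1-1. DESeq2 gave unadjusted p of 0.00224 for Bdh1, 0.00612 for Oxct1 and 0.00507 for Acat2, with adjusted p of 0.148, 0.259 and 0.230. Of all tested genes, 10 passed the adjusted p, 140 in DESeq2, 4 with plain library totals, 38 with no filter, 3 with counts summed by title number, 1, 4, 0 and 59 without the mice titled c-202, t-203, c-204 and t-205, and 0 to 25 without 1 mouse (25 without t-205-1-3). The mitochondrial minus cytosolic difference ranged from 0.017 to 0.27 over the alternatives. In the lists, the number of genes higher without a mouse or a title number was 0 to 6 in the citric acid cycle, 0 to 3 in the other ketone body genes, 1 to 8 in mevalonate synthesis, 1 to 2 in transporters and sensors and 1 to 5 in acyl-CoA oxidation. With no filter it was 4 in transporters and sensors (in place of 2) and 3 in the citric acid cycle (in place of 5), with counts summed by title number 2 in the citric acid cycle and 1 in transporters and sensors, and with plain library totals 1 in the other ketone body genes (in place of 3) and 2 in mevalonate synthesis (in place of 6). No paired analysis was possible because the replicate numbers are only accession order and the title numbers are nested in the groups. Counts per library were lowest for Bdh2 (150 to 431) and Aacs (183 to 703). The SE of the Aacs log2 fold change was 0.244, and 0.155 without t-205-1-1.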
